A study of Mus musculus with 3 samples.

Results

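Regulatory T cells (Tregs) were taken from single-cell RNA-Seq of B16-F10 tumors as 149 of 27374 deposited cell barcodes, or 149 of 1670 T cells. A barcode counted as a T cell if it passed the cell filters described below and had a UMI (a unique molecular identifier, which tags 1 captured RNA molecule) for at least 2 of Cd3e, Cd3d, Cd3g, Trac, Trbc1 and Trbc2. It counted as a Treg if it had no UMI of Cd8a or Cd8b1 and had either a UMI of Foxp3 or UMIs of at least 3 of 6 further genes, which were Il2ra, Ctla4, Tnfrsf4, Izumo1r, Ikzf2 and Tnfrsf18. Tregs were thus chosen by measured counts of these genes, which are therefore given as a description and were not tested. The remaining T cells served as comparators and fell into 940 other CD8-negative T cells and 581 CD8 T cells with a UMI of Cd8a or Cd8b1.

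Tregs are CD4 T cells that restrain immune responses, and the transcription factor Foxp3 sets and maintains their program. They hold abundant CD25 (Il2ra), the alpha chain of the IL-2 receptor, and CTLA-4, which takes the costimulatory ligands CD80 and CD86 from antigen-presenting cells. In tumors they are commonly found in an activated state, with the TNF receptor family members OX40 (Tnfrsf4), GITR (Tnfrsf18) and 4-1BB (Tnfrsf9) on their surface, and they can dampen CD8 T cell responses.

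B16-F10 is an established mouse melanoma line of C57BL/6 origin. All 3 libraries came from tumors of this line in C57BL/6J mice, labelled as skin, at 6 to 8 weeks of age. The tumor cells carried a control short hairpin RNA (shCtrl, 1 library) or an shRNA against Mib2, the gene of a ubiquitin ligase (shMib2, 2 libraries with different shRNAs, called replicates 1 and 2), and each library pooled the tumors of 3 mice. The shRNAs act in the implanted melanoma cells, so the Tregs of all libraries belong to unmodified hosts. Individual mice cannot be told apart within a library, and every p-value below measures the spread between pooled libraries only.

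There were 6 Tregs among 88 T cells under the label shCtrl, 52 among 611 in the first shMib2 replicate and 91 among 971 in the second. The median Treg held 1664.5, 2678.5 and 3048 UMIs in that order, with ranges from 1388 to 7669, from 924 to 18051 and from 1177 to 20763. A single Treg gave 45.5% of all Treg UMIs in the library labelled shCtrl, against 9.38% and 5.03% for the deepest Treg of the others. The summed Tregs of that library held 16862 UMIs, against 192479 and 412909, so its values carry by far the widest counting error. Median UMIs of the other CD8-negative T cells were lower (1339, 1298 and 2279), and those of CD8 T cells were 1789, 2344 and 3622.5. Since a deeper cell has more chances to show 3 of the 6 genes, shares of cells with a UMI are also given after each cell was thinned to 1000 UMIs.

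Several facts of the series bear on these groups. Mib2 in melanoma barcodes was at 2.49 CPM (UMIs scaled to a common library total of 1e6) under the label shCtrl, and 3.13 and 2.66 CPM were counted under shMib2, so the RNA of the targeted gene did not mark the labels, which are called "the library labelled" shCtrl or shMib2 for that reason. Of the Tregs, 1 shared its barcode with another library. Genes of natural killer (NK) cells were frequent in the comparator: at least 2 of them had UMIs in 7, 41 and 134 of the other CD8-negative T cells, and in 0, 3 and 5 Tregs. Among the 940 other CD8-negative T cells, 46 had a Cd4 UMI (4.89%), against 43 of 149 Tregs (28.9%) and 12 of 581 CD8 T cells (2.07%). The comparator is therefore a mixture, and where a named call was lost or turned against the cells with a Cd4 UMI, this is given beside it. Only 568 genes could be tested against those 46 cells, so a call without such a note need not have held there. Lag3, Havcr2, Il10, Pdcd1, Entpd1, Areg, Klrg1, Lrrc32, Ikzf4, Cd5, Mki67, Ube2c, Gzma, Xcl1, Klrd1 and Ifng were among the genes not tested there.

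Foxp3, on chromosome X of mm10 from 7573644 to 7595245, had a UMI in 2 of 6, 23 of 52 and 41 of 91 Tregs, or 66 of 149 (44.3%). Summed over Tregs it reached 178 CPM under shCtrl and 203 and 155 CPM under shMib2 (replicates 1 and 2). No single Treg held more than 4 Foxp3 UMIs, and 36 of the 66 held just 1. Of the 66, 64 also met the condition on the 6 genes, so nearly every Treg found by Foxp3 would have been found without it. The remaining 83 Tregs had no Foxp3 UMI and entered by the 6 genes alone. At 1000 UMIs a cell, Foxp3 was seen in 20.9% of Tregs.

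Outside the Tregs, Foxp3 was close to absent. The rule itself leaves none in the other CD8-negative T cells, so their 0 is not a measurement. It had a UMI in 13 of 581 CD8 T cells (2.24%). B cells, NK cells and mononuclear phagocytes, which should lack the gene, had none in 202, 536 and 156 barcodes, which allows shares of up to 1.49%, 0.56% and 1.92% at medians of 806 to 1398.5 UMIs for B cells, 1333.5 to 2226 for NK cells and 745 to 3772 for phagocytes. Of 19013 melanoma barcodes, 17 had a Foxp3 UMI (0.0894%).

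**Figure D1:**
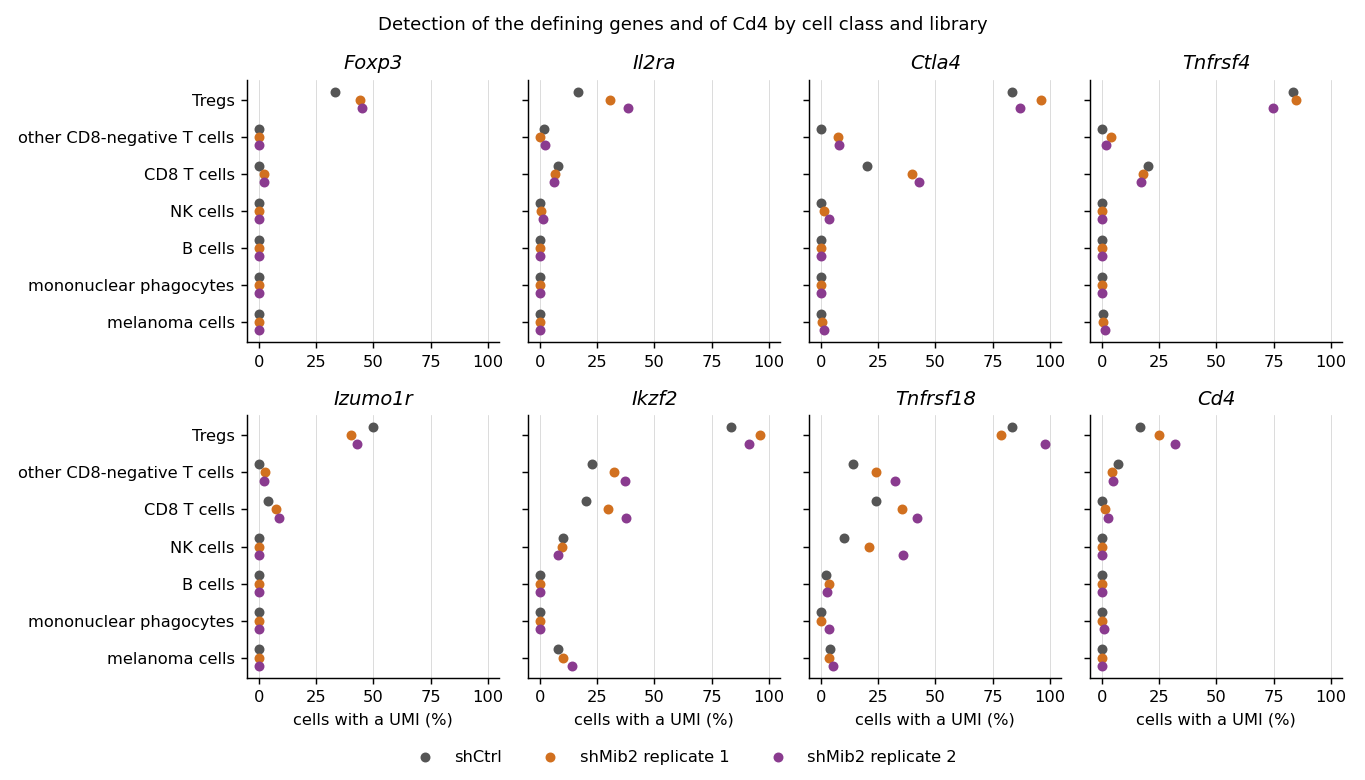
Percent of cells with a UMI (x axis) of the 6 genes of the rule, Foxp3 and Cd4 in each cell class (y axis), with 1 point for each library. Tregs lie far to the right for every gene that chose them, and Ikzf2 and Tnfrsf18 also reach 34.7% and 28.1% of the other CD8-negative T cells.

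The 6 further genes differed in how well they set Tregs apart. Ctla4, the inhibitory receptor, had a UMI in 89.9% of Tregs, 7.23% of other CD8-negative T cells and 40.8% of CD8 T cells. Tnfrsf4 was seen in 78.5%, 2.55% and 17.6%, and Izumo1r, which encodes the folate receptor 4 of Tregs, in 42.3%, 2.34% and 8.09%. Il2ra was the least often seen of the 6 in Tregs, at 34.9%, against 1.49% and 6.37%. Ikzf2, the Helios transcription factor, and Tnfrsf18 were seen in 92.6% and 90.6% of Tregs, and they were also frequent in the comparators, with Ikzf2 in 34.7% and 34.1% and Tnfrsf18 in 28.1% and 38.9%. Tnfrsf4 (4:156013843-156016612) and Tnfrsf18 (4:156026164-156028895) are neighbors on the plus strand of chromosome 4.

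The summed levels of these genes in Tregs are given for each library. Ctla4 was at 771, 987 and 889 CPM (shCtrl first, then the shMib2 replicates 1 and 2, as in all such triplets of values), and Ikzf2 at 1008, 847 and 792 CPM. Tnfrsf4 was at 2016, 920 and 1054 CPM, and Tnfrsf18 at 1067, 629 and 809 CPM. Izumo1r was at 237, 151 and 189 CPM and Il2ra at 237, 125 and 145 CPM. Of the 6 genes, 5 had their highest value under shCtrl, where it came from 4 to 34 UMIs in at most 5 cells.

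The rule has a sharp edge in a continuous count. Just inside it lay 31 Tregs with no Foxp3 UMI and exactly 3 of the 6 genes, and just outside it 175 CD8-negative T cells with exactly 2 (2, 57 and 116 by library). A further 368 cells had 1 of the 6 genes and 397 had none. In genes that the rule did not use, Tregs with 4 or more of the 6 genes but no Foxp3 UMI (n = 52) resembled those with a Foxp3 UMI (n = 66). Capg, a gelsolin-family actin-capping protein that is abundant in Tregs, was at 746 CPM with Foxp3, 772 CPM with 4 or more genes, 212 CPM with 3 genes, 127 CPM just outside and 128 CPM in cells with 0 or 1 of the genes. Maf followed the same order at 324, 372, 138, 58.4 and 49.2 CPM.

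The 31 cells with exactly 3 genes, 8 in shMib2 replicate 1 and 23 in replicate 2, had lower levels of several Treg genes than the other Tregs. Klrg1 had no UMI in them, against 155 CPM in Tregs with a Foxp3 UMI and 17.7 CPM just outside the rule. Capg was at 465 CPM in those of replicate 1 and at 141 CPM in those of replicate 2. Lrrc32, which encodes GARP, the docking receptor for latent TGF-beta on Tregs, was at 68.4, 73.3, 18.4, 0 and 1.87 CPM over the same 5 steps. Klf2, a factor of resting T cells, ran the other way at 38.6, 22.5, 129, 397 and 556 CPM, but its value in the cells with 3 genes came from replicate 2 alone (165 CPM against 0).

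Genes known from other lymphocytes were found in some of these cells. Klrd1, an NK receptor chain, was at 507 and 566 CPM in the cells with 3 genes of the shMib2 replicates, from 2 of 8 and 9 of 23 cells, against 418 and 517 CPM just outside the rule and 10.1 and 26.4 CPM in Tregs with a Foxp3 UMI. The gamma-delta T cell receptor constant gene Trdc had 29 UMIs in 4 of the 23 cells of replicate 2 and none in the 8 of replicate 1. The rule thus also took in a few cells with RNA of NK or gamma-delta T cells. These values are descriptions over cells, without a test.

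**Figure D2:**
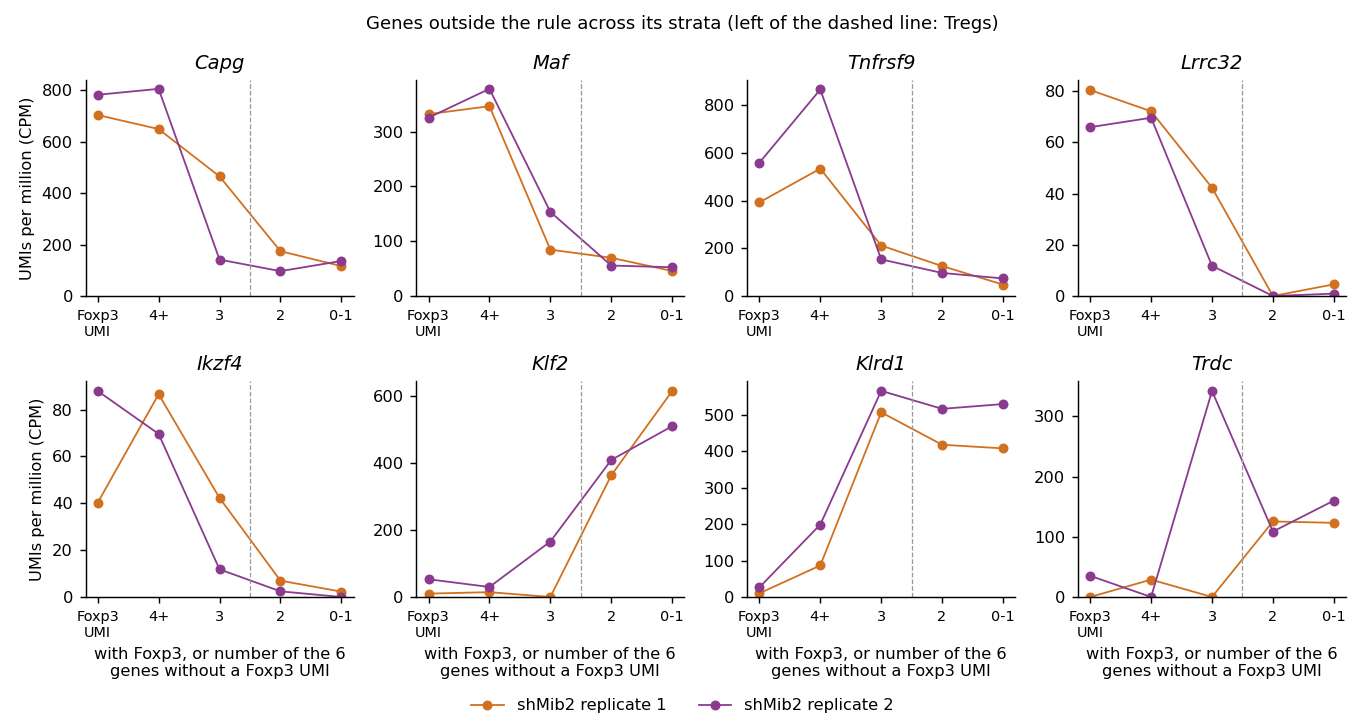
Summed level in CPM (y axes, linear) of genes outside the rule in the libraries labelled shMib2, for Tregs with a Foxp3 UMI, without one but with 4 or more or exactly 3 of the 6 genes, and for CD8-negative T cells outside the rule with 2 or with 0 to 1 of them (x axis, dashed line at the edge of the rule). Maf and Lrrc32 drop between 4 or more genes and 3 in both libraries, while at 3 genes Klf2 and Trdc are at 0 CPM in replicate 1 and at 165 and 342 CPM in replicate 2.

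The Treg share of T cells was 6.82% under shCtrl (Wilson 95% interval from 3.16 to 14.1) and 8.51% (6.55 to 11) and 9.37% (7.70 to 11.4) in the shMib2 replicates. The intervals, which cover counting error only, overlap across all libraries. The ratio of shMib2 to shCtrl was 1.31 ± 0.0893 (SD of the 2 single ratios), and it ran from 0.935 to 2.15 over other definitions of a Treg and other cell filters, so a difference in the share of T cells was not detectable with 6 Tregs under shCtrl.

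Relative to CD8 T cells, on which Tregs are known to act, the number of Tregs was close between the libraries. There were 24.0, 24.5 and 26.5 Tregs for every 100 CD8 T cells. As a share of both classes together, Tregs made up 19.4% (9.19 to 36.3), 19.7% (15.3 to 24.9) and 20.9% (17.4 to 25.0). The 3 intervals overlap, while the counts behind them run from 6 to 91 Tregs and from 25 to 344 CD8 T cells.

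Of all barcodes kept, Tregs were 0.0681% (0.0312 to 0.148), 0.607% (0.463 to 0.795) and 1.25% (1.02 to 1.53), and these 3 intervals do not overlap. The ratio to the library labelled shCtrl was 8.92 for shMib2 replicate 1 and 18.4 for replicate 2, with a mean of 13.6 ± 6.68 (SD). T cells as a whole moved alike, from 0.998% of kept barcodes to 7.13% and 13.3%. Cells are not replicates and 1 library was labelled shCtrl, so no test was run on shares. The recovery of T cells from each tumor can also set these values, and it cannot be told apart from the label here.

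**Figure D3:**
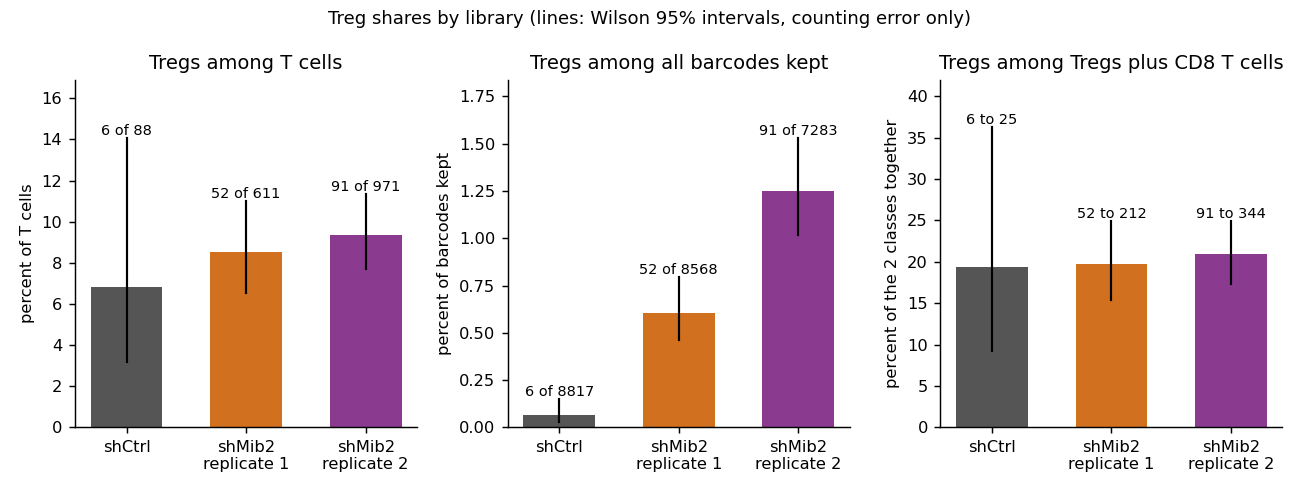
Tregs as a percent of T cells, of all kept barcodes and of Tregs plus CD8 T cells (y axes, from 0) in each library, with Wilson 95% intervals as lines. The share of kept barcodes climbs from 0.0681% to 1.25%, whereas the shares of T cells and of the sum with CD8 T cells overlap.

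To find what the Tregs expressed beyond the genes that chose them, UMIs were summed over the Tregs and over the other CD8-negative T cells of each library, and the 2 classes were compared within libraries by edgeR's quasi-likelihood test, with p-values adjusted over all genes (Benjamini-Hochberg). Of 4748 genes tested, 166 were higher in Tregs (3.5%) and 247 were lower (5.2%). Genes had to be abundant enough in some of the sums to be tested. A gene sparse in 1 class, here or against CD8 T cells, thus entered only through its level in the other class. Counts and medians of lists with such genes lean toward that direction. The median log2 difference of all genes was -0.11. The rule also shaped this comparator, since CD8-negative T cells with 3 or more of the 6 genes left it. CD8 T cells were not split in this way, and 117 of 581 met the condition on Foxp3 or the 6 genes. Against this comparator, differences in genes of activation, quiescence or proliferation cannot be told apart from the effect of that choice. Leaving out 1 library changed both counts: without shCtrl they were 351 and 378, without shMib2 replicate 1 they were 98 and 92, and without shMib2 replicate 2 they were 93 and 122. With the comparator limited to the 46 cells with a Cd4 UMI, 568 genes could be tested, of which 51 were higher and 45 lower.

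Genes known from Tregs but not used by the rule were higher. Of 14 such identity genes, 7 were abundant enough to be tested, and 4 of them were higher and none lower, with a median log2 difference of 2.07 over the 7. Of the 4, Lrrc32, Ikzf4 and Penk could be tested only through their level in Tregs, so these counts were partly set by the filter. Capg was at 830, 655 and 656 CPM in Tregs against 149, 131 and 125 CPM in the other CD8-negative T cells, with every Treg value far above every comparator value. Its log2 difference was 2.07 ± 0.22 (SE, adjusted p = 0.000153 by edgeR's quasi-likelihood test), and a UMI of Capg was seen in 77.2% of Tregs and 14.4% of the comparator, or 44.6% and 8.39% at 1000 UMIs.

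Lrrc32 and Ikzf4 were nearly confined to Tregs among the CD8-negative T cells. Lrrc32 was at 59.3, 72.7 and 55.7 CPM in Tregs and at 0, 3.44 and 0.666 CPM in the comparator, where 3 UMIs were counted in all. The ratio of its pooled levels was 44.2, with an exact 95% counting interval from 14.0 to 224 (adjusted p = 0.000456 by edgeR's quasi-likelihood test). Ikzf4, which encodes Eos, a partner of Foxp3 in gene silencing, had 39 UMIs in Tregs and 3 in the comparator, a ratio of 45.3 (14.4 to 229), although the 6 Tregs of the library labelled shCtrl had none. Penk, the gene of proenkephalin, passed as well with 26 UMIs against 3 and none in those 6 Tregs. Cd4 was at 59.3, 67.5 and 94.5 CPM against 68.7, 30.9 and 22 CPM, and its call (log2 difference 1.34 ± 0.38, adjusted p = 0.0472) was lost without shMib2 replicate 1 (adjusted p = 0.0778, both by edgeR's quasi-likelihood test) and under DESeq2. The Cd4 call was also lost with a Foxp3 UMI required (adjusted p = 0.103) and with predicted doublets removed (0.0536). Without barcodes holding at least 2 NK, 2 B cell or 3 phagocyte genes it was lost too (0.166, all by the same edgeR test). Cd81 was not called, at a log2 difference of 1.01 ± 0.33 (adjusted p = 0.073 by edgeR's quasi-likelihood test), but was under 7 of the alternatives.

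Genes of effector and tissue Tregs were higher in part. Of 23 genes, 19 were tested, 9 were higher and none was lower, with a median log2 difference of 1.23. Of the 9, Klrg1 and Il1r2 could be tested only through their level in Tregs. Tnfrsf9, the costimulatory receptor 4-1BB, was at 712, 421 and 550 CPM in Tregs and at 57.2, 67 and 79.9 CPM in the comparator, a log2 difference of 2.54 ± 0.23 (adjusted p = 4.18e-05 by edgeR's quasi-likelihood test). Every Treg value was several times every comparator value. Areg, the gene of the growth factor amphiregulin that tissue Tregs use in repair, was at 178, 229 and 150 CPM against 11.4, 34.4 and 16 CPM, and was seen in 28 of the 149 Tregs. Klrg1, an inhibitory receptor of terminally differentiated effector cells, was at 59.3, 166 and 111 CPM against 11.4, 13.7 and 17.3 CPM.

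Maf and S100a4 belonged to the same group. Maf, a transcription factor that drives Il10 in T cells, was at 356, 307 and 303 CPM against 22.9, 51.5 and 53.3 CPM, with a log2 difference of 2.36 ± 0.25 (adjusted p = 0.00015 by edgeR's quasi-likelihood test). S100a4, a calcium-binding protein of motile cells, was at 1423, 1631 and 1826 CPM against 297, 390 and 466 CPM. Both calls rested on the comparator: against the cells with a Cd4 UMI, the log2 differences were 0.63 for Maf (adjusted p = 0.421) and 0.62 for S100a4 (adjusted p = 0.161). Tnfrsf9 and Capg were still called there at 4.15 and 1.15 (adjusted p = 9.09e-08 and 0.0203, all by edgeR's quasi-likelihood test). Tnfrsf9 was at 187, 49.5 and 0 CPM in those cells, in sums of only 5361, 20207 and 46291 UMIs. The size of its difference there rests on very few molecules. Icos, Batf, Il1r2 and Lgals1 were the other members that were higher, but against the cells with a Cd4 UMI Icos had the opposite direction and was not called (-0.83, adjusted p = 0.131 by edgeR's quasi-likelihood test). The calls of Icos and Lgals1 were lost without shMib2 replicate 1 (adjusted p = 0.0532 and 0.158 by edgeR's quasi-likelihood test), and that of Batf under DESeq2 (adjusted p = 0.127). Ccr8, the chemokine receptor by which tumor Tregs are often recognized, was too sparse to test, with 14 UMIs in 11 Tregs and 4 UMIs in 3 of the other CD8-negative T cells.

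**Figure D4:**
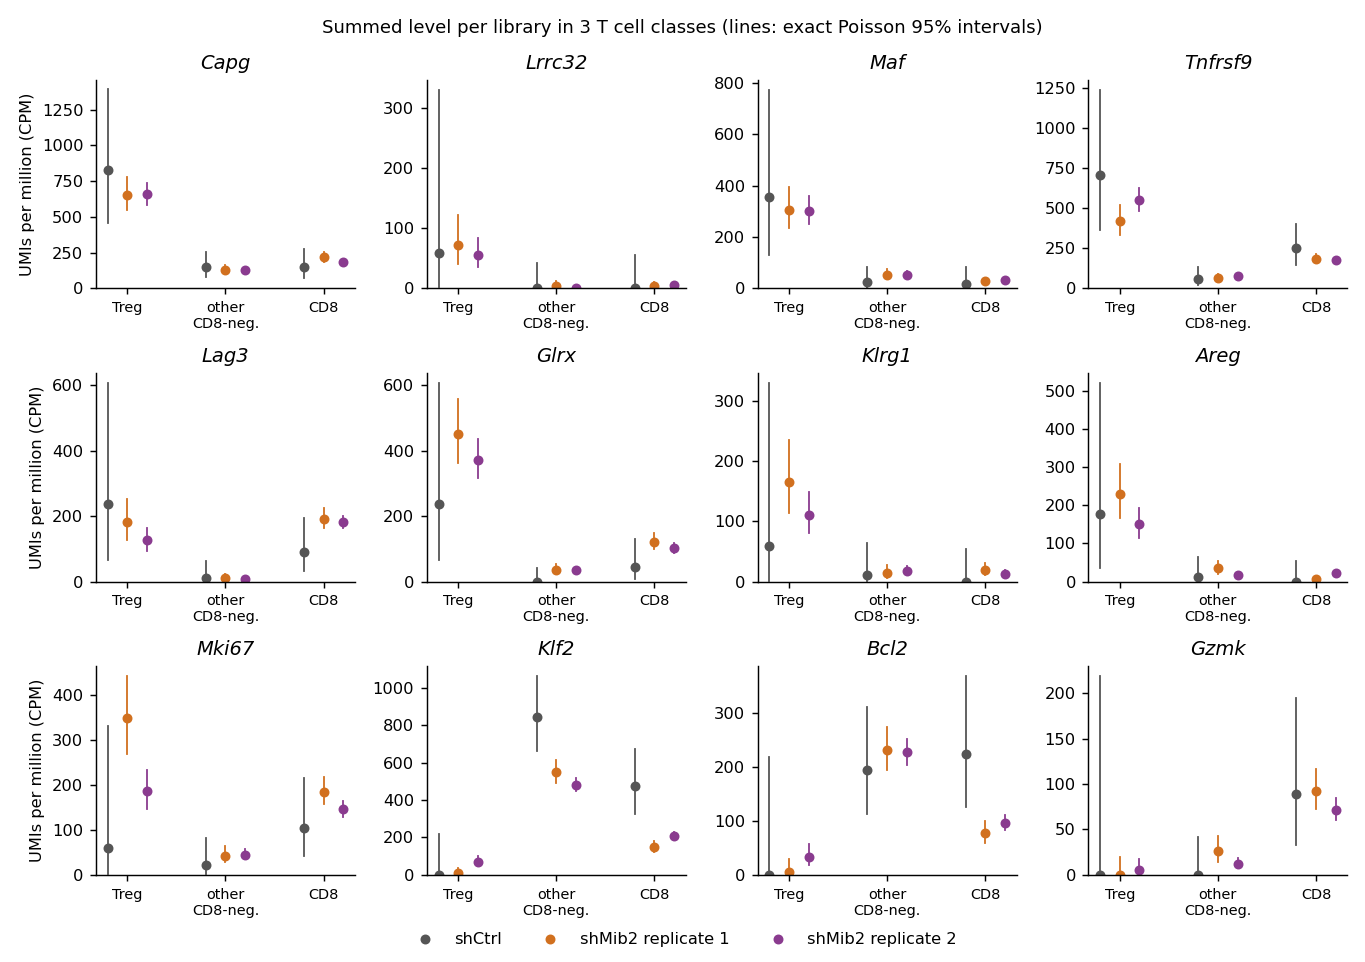
Summed level in CPM (y axes, linear from 0) of named genes in Tregs, other CD8-negative T cells and CD8 T cells, with 1 point for each library and exact Poisson 95% intervals as lines. Capg, Tnfrsf9 and Maf sit highest in Tregs in each library, and the Treg intervals under shCtrl, from 6 cells, are wide.

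Molecules with which Tregs suppress other cells, and the inhibitory receptors they share with exhausted T cells, were also higher. Of 12 such genes, 8 were tested and 5 were higher, with none lower and a median log2 difference of 2.68. Lag3, Entpd1, Il10 and Havcr2 were too sparse in the comparator to be tested through it, so these counts were partly set by the filter. Lag3, which binds MHC class II, was at 237, 182 and 126 CPM in Tregs and at 11.4, 10.3 and 7.99 CPM in the comparator, a log2 difference of 3.76 ± 0.34 (adjusted p = 4.18e-05 by edgeR's quasi-likelihood test). Pdcd1, the gene of PD-1, was at 178, 151 and 111 CPM against 0, 39.5 and 15.3 CPM. Entpd1, the CD39 enzyme that degrades extracellular ATP, was at 59.3, 41.6 and 48.4 CPM against 0, 3.44 and 5.33 CPM.

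Il10 and Havcr2 (TIM-3) rested on few molecules in the comparator. The suppressive cytokine gene Il10 had 20 UMIs in 16 Tregs and 1 UMI in the comparator, a ratio of 69.8 (exact 95% counting interval from 11.2 to 2892), and Havcr2 had 24 UMIs against 2, a ratio of 41.9 (10.4 to 365). Both were called, with the higher level in Tregs in each library. Tgfb1, the gene of the Treg cytokine TGF-beta, was not called, at 534, 166 and 187 CPM against 172, 99.7 and 171 CPM.

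The naming rule by size of the difference also took in genes of various roles. Glrx, the gene of glutaredoxin, which reduces protein disulfides, was at 237, 452 and 373 CPM in Tregs and at 0, 36.1 and 34.6 CPM in the comparator, a log2 difference of 3.34 ± 0.27 (adjusted p = 2.65e-05 by edgeR's quasi-likelihood test). It was seen in 61.1% of Tregs and 6.6% of the comparator, or 31.8% and 3.28% at 1000 UMIs. Neb, the gene of the muscle giant nebulin, had 45 UMIs in 29 Tregs and none in the comparator, which makes it at least 52.3-fold higher at a floor of 3 UMIs for the class. Il1r2, a decoy receptor for IL-1, was at 59.3, 36.4 and 58.1 CPM against 0, 3.44 and 3.33 CPM. Matk, Rapsn and Bmyc were higher with log2 differences of 4.29, 3.72 and 3.02. Slc36a3os also passed (3.37), but it is an antisense gene and the use of strand in counting was not stated, so its reads cannot be told from those of an overlapping gene.

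Costimulatory and signalling genes had small median differences. Of 9 costimulation genes tested, Cd5 and Cd2 were higher and Cd96 was lower, with a median of -0.42. Over all genes 3.5% were higher and 5.2% lower. Cd5, which tempers T cell receptor signals, was at 297, 244 and 216 CPM against 57.2, 77.3 and 52.6 CPM (log2 difference 1.64 ± 0.25, adjusted p = 0.00104 by edgeR's quasi-likelihood test), while the call of Cd2 was marginal (adjusted p = 0.0474 by the same edgeR test) and was lost under 9 of the alternatives, among them against cells with a Cd4 UMI (0.635) and without shMib2 replicate 1 (0.214) or 2 (0.0638), and that of Cd96 was lost without replicate 1 (0.0795). Of 12 genes of IL-2 receptor and STAT5 signalling, none was higher and 3 were lower (Bcl2, Socs3 and Jak1), against 5.2% lower over all genes. The median of the 12 was -0.32. Jak1 was not called without shMib2 replicate 1 (adjusted p = 0.0702 by edgeR's quasi-likelihood test). The IL-2 receptor chains Il2rb and Il2rg were not called. Bcl2, the survival factor, was at 0, 5.2 and 33.9 CPM in Tregs against 195, 232 and 227 CPM, with no overlap between the classes (log2 difference -3.58 ± 0.39, adjusted p = 0.000159 by edgeR's quasi-likelihood test).

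Downstream of the receptors the medians were small as well. Among 11 genes of T cell receptor signalling, 4 were lower and none was higher (median -0.39), against 5.2% lower and 3.5% higher over all genes. Ptpn22, Prkcq and Ptprc were among the 4, with adjusted p-values from 0.019 to 0.0386 by edgeR's quasi-likelihood test. These calls were lost under DESeq2, for Ptpn22 and Ptprc without either shMib2 replicate, and for Prkcq without replicate 1 (adjusted p = 0.105 to 0.212 by the same edgeR test). Ptprc was also not called against cells with a Cd4 UMI (-0.26). Of 10 NF-kB genes, 1 was lower, Tnfaip3, which encodes the inhibitor A20, and none was higher. With 5.2% lower over all genes, this count is no result about the list. The call of Tnfaip3 was lost without shMib2 replicate 1 (adjusted p = 0.281 by edgeR's quasi-likelihood test). Against cells with a Cd4 UMI, Tnfaip3 was lower (-1.43, adjusted p = 4.73e-05), as were Cd28 (-1.09, 0.0453), Mcl1 (-1.01, 0.0388) and Lat (-0.97, 0.0492, all by edgeR's quasi-likelihood test). No costimulatory or signalling gene was called higher there. Among 15 interferon-response genes, Ly6a and Ifi27l2a were higher and Ifit3 was lower, against the same 3.5% and 5.2% over all genes. The call of Ifi27l2a was lost without shMib2 replicate 1 (adjusted p = 0.0555) and against cells with a Cd4 UMI (adjusted p = 0.137, both by edgeR's quasi-likelihood test). Ly6a, the Sca-1 antigen of activated T cells, was at 1186, 1200 and 1216 CPM against 172, 275 and 315 CPM (log2 difference 1.85 ± 0.21, adjusted p = 0.000161 by edgeR's quasi-likelihood test).

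Genes of resting and recirculating T cells were lower in Tregs, as a nearly complete group. All 14 genes of quiescence and homing were tested, 12 were lower and none was higher, with a median log2 difference of -2.12. Klf2, the factor that drives lymph node homing receptors, was at 0, 10.4 and 70.2 CPM in Tregs and at 847, 551 and 481 CPM in the comparator (log2 difference -3.91 ± 0.42, adjusted p = 0.000159 by edgeR's quasi-likelihood test). Tcf7, the factor of naive and stem-like T cells, was at 0, 10.4 and 60.6 CPM against 378, 220 and 202 CPM. Both genes were lower in every library with no overlap of the classes.

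The IL-7 receptor gene Il7r, which Tregs are known to express at low levels, was at 59.3, 46.8 and 99.3 CPM against 504, 273 and 236 CPM (log2 difference -2.09 ± 0.31, adjusted p = 0.000812 by edgeR's quasi-likelihood test). Ms4a4b was at 0, 187 and 387 CPM against 1156, 1213 and 1154 CPM, and was seen in 28.2% of Tregs and 79.4% of the comparator, or 19.6% and 65.3% at 1000 UMIs. Against the comparator cells with a Cd4 UMI, only 5 of these genes could be tested, and all 5 were lower: Klf2, Tcf7, Il7r, Satb1 and Ms4a4b. Klf2, Tcf7 and Il7r were abundant enough to be tested only through those cells, where Il7r was at 933, 148 and 605 CPM. The filter thus favored genes high in the comparator, and the 5 do not show the level of the whole group against cells with a Cd4 UMI.

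Genes of cytotoxic cells were lower in Tregs against this comparator, but the direction of some of them depended on which cells it held. Of 14 genes tested, 10 were lower and none was higher, with a median log2 difference of -1.95. Gzma, the gene of granzyme A, was at 0, 166 and 131 CPM in Tregs and at 927, 1115 and 1460 CPM in the comparator (log2 difference -3.51 ± 0.32, adjusted p = 4.18e-05 by edgeR's quasi-likelihood test). The chemokine gene Xcl1 was at 0, 41.6 and 184 CPM against 744, 770 and 955 CPM, and the NK receptor genes Klrd1 and Klrk1 were lower with log2 differences of -2.16 and -2.39. All 6 marker genes of NK cells were lower in Tregs as well, and their part in the result was measured by leaving out every barcode with at least 2 NK, 2 B cell or 3 phagocyte genes, after which 7 of 12 cytotoxicity genes were still lower.

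With the comparator limited to cells with a Cd4 UMI, only 3 cytotoxicity genes could be tested and all 3 were higher in Tregs. Genes sparse in both classes, such as Gzma, Xcl1 and Klrd1, could not be tested there, so the 3 do not stand for the list. They were Gzmb, the gene of granzyme B, with a log2 difference of 2.64 ± 0.82 (adjusted p = 0.0123), Ccl5 with 0.80 ± 0.28 (adjusted p = 0.0291) and Nkg7 with 1.00 ± 0.37 (adjusted p = 0.0445, all by edgeR's quasi-likelihood test). Gzmb was at 593, 353 and 184 CPM in Tregs and seen in 58 of 149. In the cells with a Cd4 UMI it was at 0, 0 and 64.8 CPM, so it could be tested only through its level in Tregs. In the whole comparator it was at 103, 220 and 286 CPM, and it was not called (log2 difference 0.04 ± 0.34). Ccl5 was called lower in Tregs against the whole comparator, at -1.37 ± 0.23 (adjusted p = 0.00184 by edgeR's quasi-likelihood test), so its direction turned with the comparator, and without shMib2 replicate 1 it was not called (adjusted p = 0.174 by the same edgeR test).

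Helper T cell cytokines were mostly too sparse to test. Of 17 genes 3 were tested, and Ifng and Stat4 were lower, Stat4 not without shMib2 replicate 1 (adjusted p = 0.0594 by edgeR's quasi-likelihood test). Ifng, the gene of interferon-gamma, was at 0, 41.6 and 53.3 CPM in Tregs against 114, 175 and 193 CPM (log2 difference -2.22 ± 0.31, adjusted p = 0.0006 by edgeR's quasi-likelihood test). Tbx21, the T-bet factor that turns Ifng on, was not called, at 0, 26 and 24.2 CPM against 57.2, 43 and 60.6 CPM.

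Further genes named by the size of their decrease belonged to no single group. Nrarp, a target and inhibitor of Notch signalling, had no UMI in any Treg and 91 UMIs in the comparator, which makes it at least 8.7-fold lower in Tregs at a floor of 3 UMIs for the class. Id3, a partner of E proteins, had 2 UMIs against 92 (13.2 times as high in the comparator by pooled level, 3.55 to 111), and Dapl1 had 2 against 87 (12.5 times, 3.35 to 105). Zfp652, Klri2 and Qrfp were as sparse in Tregs, with 2 UMIs each. Atp8b4 was at 0, 5.2 and 7.27 CPM against 126, 51.5 and 64 CPM. Timp1 had 7 UMIs in Tregs against 1697, but those came from 21 of the 940 comparator cells, and 1 cell gave 30.2% of them. Klra9 is 1 of several near-identical Ly49 receptor genes among which counting can split reads, and its decrease is uncertain for that reason.

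Proliferation genes were higher in Tregs than in the other CD8-negative T cells. All 14 proliferation genes were tested, 10 were higher and none was lower, with a median log2 difference of 1.33. Mki67, the gene of the Ki-67 antigen, was at 59.3, 348 and 187 CPM in Tregs and at 22.9, 43 and 44.6 CPM in the comparator (log2 difference 2.2 ± 0.30, adjusted p = 0.000539 by edgeR's quasi-likelihood test). Ube2c, a ubiquitin-conjugating enzyme of mitosis, was at 237, 182 and 339 CPM against 22.9, 51.5 and 58.6 CPM. Stmn1, Top2a and Birc5 were higher as well, with log2 differences of 1.59, 1.75 and 1.46.

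Counted by cell, at least 2 of Mki67, Top2a, Birc5, Cdk1 and Ube2c had UMIs in 1 of 6, 18 of 52 (34.6%) and 19 of 91 (20.9%) Tregs. The same share was 3.51%, 4.9% and 4.85% of other CD8-negative T cells and 12%, 29.2% and 22.7% of CD8 T cells. At 1000 UMIs a cell it was 16.7%, 13.7% and 9.89% of Tregs, 2.27%, 1.54% and 1.93% of other CD8-negative T cells and 4.17%, 14.1% and 9.09% of CD8 T cells. In the libraries labelled shMib2, Tregs lay above the other CD8-negative T cells at either depth and close to the CD8 T cells. Under shCtrl the share rested on 1 Treg (Wilson 95% interval from 3.01 to 56.4%), and a single Treg gave 81.9% of the UMIs of the proliferation list.

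Because the proliferation genes moved together, their promoters were read for a known cell cycle element. The cell cycle homology region is a short element through which cell cycle genes are repressed in resting cells, and it was searched here as TTTGAAT on both strands of the RefSeq window from 250 bases before to 50 bases after each gene's start (GRCm38.p6). It was in 4 of the 9 proliferation genes that were higher in Tregs and had a promoter in the table (Ccnb2, Hmgb2, Mki67 and Ube2c), in 9.48% of the 116 genes higher in Tregs with a promoter, in 5.08% of the 197 lower genes and in 3.09% of all 3815 tested genes with one. Over all 27025 promoters of the table the share was 4.98%. A match is a description of the letters and shows no bound factor. The surroundings of the element in 3 of these genes are shown with the match in capitals, 5′ to 3′ on the gene's strand, from chr7:135716426-135716522 (minus strand), chr2:164769854-164769928 (plus) and chr8:57511768-57511842 (plus).
Mki67: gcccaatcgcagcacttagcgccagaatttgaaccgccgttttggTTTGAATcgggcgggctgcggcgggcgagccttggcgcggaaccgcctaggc
Ube2c: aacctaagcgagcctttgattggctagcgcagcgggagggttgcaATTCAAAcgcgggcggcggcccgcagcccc
Hmgb2: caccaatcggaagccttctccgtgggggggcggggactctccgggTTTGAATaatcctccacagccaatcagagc

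Elements of T cell activation were read in the same windows. The AP-1 element TGANTCA, through which BATF and JUN proteins act in activated T cells, was in 6.9% of the promoters of higher genes, 9.14% of those of lower genes and 6.13% of those of all tested genes. The forkhead element GTAAACA was in 5.17%, 4.57% and 3.17%, and the STAT element TTCNNNGAA in 12.1%, 14.7% and 8.15%. Both strands were searched, and the AP-1 and STAT elements were more frequent near lower genes than near higher genes. The AP-1 matches near Tnfrsf9, Glrx and Havcr2 are shown because these 3 genes were higher in Tregs than in other CD8-negative T cells. Havcr2 was not called against CD8 T cells. The 3 genes were chosen after their values were seen. The stretches lie on the plus strand at chr4:150927939-150927998, chr13:75839742-75839838 and chr11:46454686-46454782. That of Tnfrsf9 is inside the annotated span of the gene (chr4:150914562-150946102), at a RefSeq start within it.
Tnfrsf9: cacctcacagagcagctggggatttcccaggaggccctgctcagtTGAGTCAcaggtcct
Glrx: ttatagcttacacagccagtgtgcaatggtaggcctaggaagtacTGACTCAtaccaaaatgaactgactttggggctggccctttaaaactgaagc
Havcr2: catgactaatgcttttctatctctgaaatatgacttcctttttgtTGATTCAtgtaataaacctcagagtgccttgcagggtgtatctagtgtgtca

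Immediate early genes, which respond within minutes to receptor signals and also to tissue dissociation, were lower in Tregs. Of 17 tested, 10 were lower and none was higher, with a median log2 difference of -1.08. Dusp2, a phosphatase of activated ERK, was at 415, 327 and 402 CPM against 1076, 1053 and 1180 CPM (log2 difference -1.88 ± 0.22, adjusted p = 0.000161 by edgeR's quasi-likelihood test), with no overlap. Junb was at 1838, 1481 and 1720 CPM against 3273, 2970 and 2972 CPM, and was not called without shMib2 replicate 1 (adjusted p = 0.109 by edgeR's quasi-likelihood test). Against the comparator cells with a Cd4 UMI, 5 of 8 tested genes of the list were lower, Dusp2 and Junb among them.

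**Figure D5:**
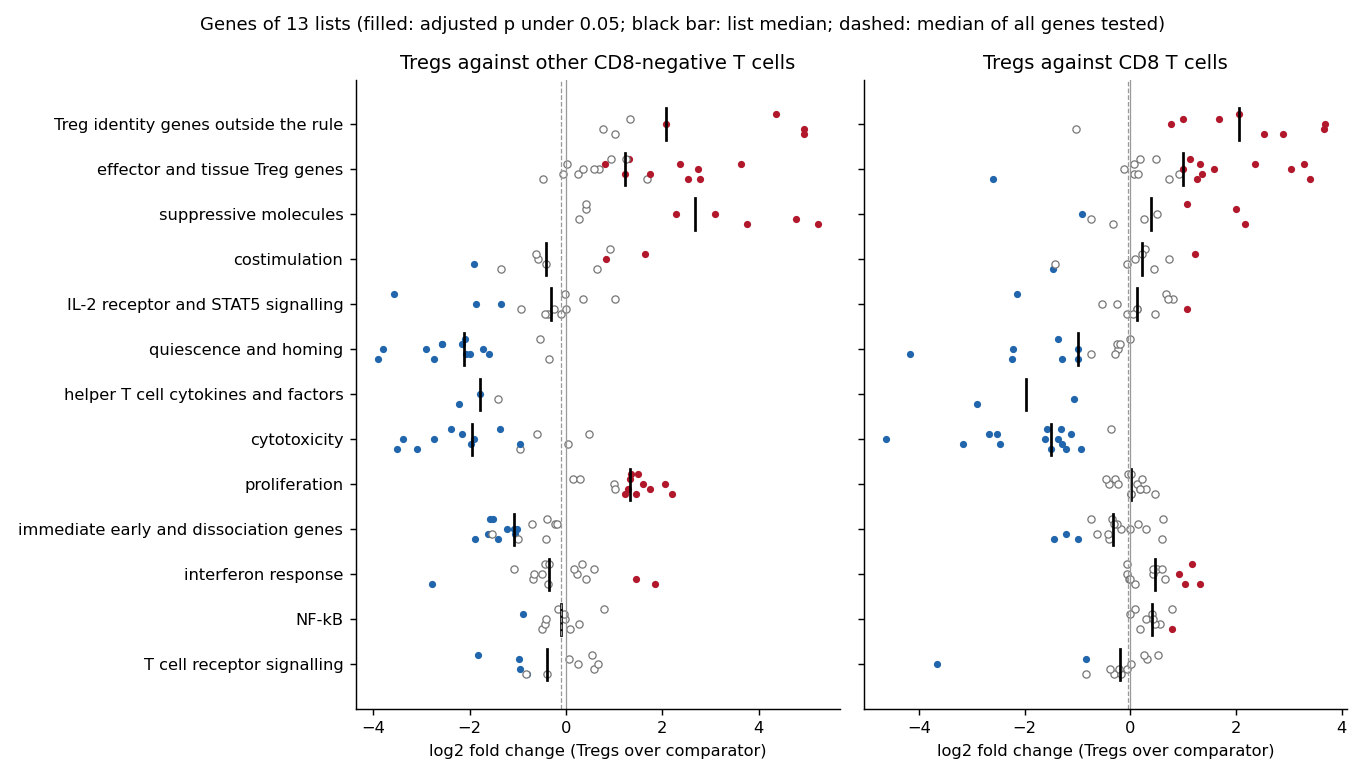
Log2 difference of each tested gene of 13 lists (x axis) between Tregs and other CD8-negative T cells and between Tregs and CD8 T cells, with filled points for genes with an adjusted p under 0.05 and a black bar for the list's median. Quiescence and homing genes lie left of 0 in both panels, while proliferation genes lie right of 0 against other CD8-negative T cells and around 0 against CD8 T cells.

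Against CD8 T cells, the Tregs differed in fewer genes. Of 4552 genes tested in the same way, 144 were higher in Tregs (3.16%) and 101 were lower (2.22%), with a median log2 difference of -0.04. Without shMib2 replicate 1 the lower count was 52, and without shMib2 replicate 2 the counts were 56 and 36. CD8 genes are left out of these results because the rule used them. Missed CD8 molecules set a limit on the classes: 139 of the 581 CD8 T cells (23.9%) were identified by a single CD8 UMI. When 563 of the 581 were thinned to 1000 UMIs, 178 (31.6%) lost every CD8 UMI, and 6 would then have entered the Tregs. Thinning also takes away UMIs of the genes that choose Tregs, so the 6 hold for that depth only. At full depth, 117 of the 581 CD8 T cells met the condition on Foxp3 or the 6 genes.

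Treg identity genes were higher than in CD8 T cells as well. Of 9 tested, 8 were higher and none was lower, with a median of 2.06. Lrrc32 was at 0, 3.71 and 4.7 CPM in CD8 T cells (log2 difference 3.69 ± 0.56, adjusted p = 1.67e-06 by edgeR's quasi-likelihood test), and Capg at 149, 216 and 182 CPM (1.67 ± 0.23, adjusted p = 1.81e-07 by the same edgeR test). Itgb8, the integrin chain with which Tregs release active TGF-beta, had 25 UMIs in 16 Tregs and 7 UMIs in 4 CD8 T cells, and was called (log2 difference 3.67 ± 0.73, adjusted p = 0.000263 by edgeR's quasi-likelihood test), but not by DESeq2, and the 6 Tregs under shCtrl had none. Cd4 was higher by 3.63 ± 0.47, with 59.3, 67.5 and 94.5 CPM in Tregs and 0, 3.71 and 7.82 CPM in CD8 T cells.

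Of the effector and tissue Treg genes, 10 of 19 were higher than in CD8 T cells and 1 was lower. Maf was at 14.9, 27.2 and 31.3 CPM in CD8 T cells (log2 difference 3.28 ± 0.23, adjusted p = 1.76e-17 by edgeR's quasi-likelihood test). Areg and Klrg1 were higher with log2 differences of 3.40 and 3.04. Ramp1, a partner of the receptor for the neuropeptide CGRP, was at 652, 182 and 199 CPM in Tregs and at 29.8, 22.2 and 19.8 CPM in CD8 T cells (3.17 ± 0.28, adjusted p = 1.13e-13 by edgeR's quasi-likelihood test). The exception was Cxcr6, the receptor that holds CD8 T cells in tumors, which was lower at 59.3, 15.6 and 48.4 CPM against 268, 178 and 223 CPM (-2.59 ± 0.28).

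The inhibitory receptors that parted Tregs from other CD8-negative T cells were shared with CD8 T cells. Lag3 was at 237, 182 and 126 CPM in Tregs and at 89.3, 193 and 181 CPM in CD8 T cells and was not called (-0.34 ± 0.23), and neither were Havcr2 (-0.74 ± 0.38) and Entpd1 (0.51 ± 0.39). Pdcd1 was lower in Tregs, at 178, 151 and 111 CPM against 223, 218 and 236 CPM (-0.92 ± 0.24, adjusted p = 0.01 by edgeR's quasi-likelihood test), but not without shMib2 replicate 2 (adjusted p = 0.488 by the same edgeR test). In this list Nt5e, the CD73 enzyme that makes adenosine, Fgl2 and Il10 were higher. The calls of Fgl2 and Il10 were lost under DESeq2, and that of Fgl2 also without shMib2 replicate 1 (adjusted p = 0.0673 by edgeR's quasi-likelihood test). Nt5e was at 297, 36.4 and 72.7 CPM against 14.9, 4.94 and 21.4 CPM (1.99 ± 0.43, adjusted p = 0.00076 by edgeR's quasi-likelihood test).

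Cytotoxic genes were lower than in CD8 T cells almost throughout, with 14 of 15 tested lower and none higher (median -1.50). Prf1, the gene of perforin, was at 0, 46.8 and 33.9 CPM in Tregs and at 74.4, 213 and 238 CPM in CD8 T cells (-2.67 ± 0.28, adjusted p = 1.57e-10 by edgeR's quasi-likelihood test). Gzmb was at 593, 353 and 184 CPM against 74.4, 817 and 751 CPM (-1.29 ± 0.31, adjusted p = 0.00298 by edgeR's quasi-likelihood test), and under shCtrl the order was the reverse, from 10 and 5 UMIs. Its call was lost without shMib2 replicate 2 (adjusted p = 0.0641), at 1000 UMIs a cell (adjusted p = 0.455, both by edgeR's quasi-likelihood test) and under DESeq2. Gzmk had 2 UMIs in Tregs and 219 in CD8 T cells, a ratio of 24.4 (exact 95% counting interval from 6.67 to 203). Ifng was lower (log2 difference -2.91 ± 0.30), and so was Themis, a signalling adaptor of the T cell receptor (-3.67 ± 0.55).

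Proliferation did not part Tregs from CD8 T cells. None of the 14 genes was called, and their median log2 difference was 0.02, with Mki67 at 0.46 ± 0.24 and Top2a at 0.18 ± 0.23. Of 13 quiescence genes 7 were lower, with Klf2 at -2.24 ± 0.29 and Ms4a4b at -2.22 ± 0.28, and none was higher, while Il7r was not called (-0.19 ± 0.30). Of 14 interferon-response genes 4 were higher (Ifi27l2a, Ly6a, Ly6e and Igtp) and none was lower. The call of Igtp was lost without shMib2 replicate 1 and under DESeq2. Pim1 was higher and Bcl2 lower among the 12 genes of IL-2 receptor and STAT5 signalling, against 3.16% higher and 2.22% lower over all genes.

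Comparing the Tregs of the libraries labelled shMib2 with those labelled shCtrl asks whether the Tregs themselves differed when the tumor cells carried another shRNA. Of 4093 genes tested in the same way, 1 passed (0.0244%), and 381 had an unadjusted p under 0.05. DESeq2 also called 1. That gene was Tmsb4x, which encodes the actin-binding peptide thymosin beta 4, whose Treg level was 9311 CPM under shCtrl against 16199 and 16657 CPM under shMib2 (log2 difference 1.30 ± 0.11, adjusted p = 0.0295 by edgeR's quasi-likelihood test). With the deepest of the 6 Tregs left out the log2 difference was 1.12 (adjusted p = 0.0557), and with predicted doublets removed it was 1.27 (adjusted p = 0.196, both by edgeR's quasi-likelihood test). Actb, the actin gene, came next at 6286, 8988 and 8825 CPM and did not pass (adjusted p = 0.121 by edgeR's quasi-likelihood test).

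Ifi27l2a was at 771, 1959 and 2521 CPM, Cst3 at 415, 1236 and 1364 CPM and S100a6 at 890, 1844 and 1841 CPM, and none of the 3 passed (adjusted p = 0.153, 0.153 and 0.157 by edgeR's quasi-likelihood test). In Cst3, 1 Treg gave 47.0% of the UMIs. No gene of the 13 lists was called between the labels, which does not show that the Tregs were alike, since a single library was labelled shCtrl and held 6 of them. Mib2 had 0, 0 and 2 UMIs in Tregs, and Cd274, the gene of PD-L1, 0, 6 and 9 UMIs, so neither could be compared.

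Genes of other cell types were followed in the Tregs because RNA of other cells or joined cells can enter a barcode. The 6 NK marker genes summed to 0%, 0.0156% and 0.0128% of Treg UMIs, and the 3 neutrophil genes to 0 UMIs. The 6 melanoma markers made up 0.0534%, 0.0551% and 0.0424%. Melanoma marker UMIs were in 5, 37 and 73 Tregs and hemoglobin UMIs in 2, 31 and 52. In shMib2 replicate 1, 1 Treg gave 99.0% of the UMIs of fibroblast markers, and single Tregs gave 67.2% and 92.4% of the hemoglobin UMIs in shMib2 replicates 1 and 2. All 4 erythrocyte markers were called higher in Tregs than in CD8 T cells (median log2 difference 2.42), and none was called against other CD8-negative T cells (median -0.99). The hemoglobin genes are near-identical pairs whose reads cannot be assigned with confidence.

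Cd74, the invariant chain of MHC class II, had a UMI in 3 of 6, 26 of 52 and 44 of 91 Tregs (49.0% in all), against 3.83% of other CD8-negative T cells and 12.2% of CD8 T cells, and in 25.0%, 2.07% and 5.86% at 1000 UMIs. It was at 178, 1075 and 1269 CPM in Tregs, where a single cell gave 43.6% of the UMIs. It was called higher than in either comparator at log2 differences of 2.25 ± 0.45 and 0.84 ± 0.25 (adjusted p = 0.00642 and 0.0303 by edgeR's quasi-likelihood test). With predicted doublets removed, which took out 1 Treg, the log2 differences were 2.00 and 1.11 and neither was called (adjusted p = 0.0577 and 0.0909). The second was also lost without shMib2 replicate 2 (adjusted p = 0.202, all by edgeR's quasi-likelihood test). The 6 dendritic cell markers, which include Cd74, summed to 0.0178%, 0.137% and 0.160% of Treg UMIs and to 0.00114%, 0.0744% and 0.0124% of those of other CD8-negative T cells, and 1 Treg gave 65.1% of them in shMib2 replicate 2. Of these markers 2 were tested, and only Cd74 was called.

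Ighm, the constant chain of IgM, had a UMI in 39.6% of Tregs, 17.1% of other CD8-negative T cells and 20.8% of CD8 T cells. It was higher than in CD8 T cells (log2 difference 1.29 ± 0.23), but not without shMib2 replicate 2 (adjusted p = 0.144) or at 1000 UMIs a cell (adjusted p = 0.0659, both by edgeR's quasi-likelihood test). The 6 B cell markers summed to 0.0119%, 0.0369% and 0.0262% of Treg UMIs, and the 8 phagocyte markers to 0.00593%, 0.026% and 0.0291%. The part of other cells' RNA in these values was not tested.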

How the data were processed

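Single-cell RNA-Seq gene counts were analysed from 3 libraries. The counts deposited by the authors are UMI counts per gene and barcode, which their processing notes credit to Cell Ranger (4.0.0) and the mm10 build, and use of strand was not given in the sources used here. Barcodes with at least 200 genes, at most 20% mitochondrial UMIs and Dct plus Pmel under 0.5% of UMIs were kept. Library totals were 190904274 to 243926188 UMIs, and intervals and limits cover counting error only. UMIs of each class were summed by library and tested with edgeR (4.0.16, R 4.3.3) with TMM scaling, the library as a block in comparisons of classes, filterByExpr and an adjusted p under 0.05. Between the labels, 1 residual degree of freedom was left, and the lone shCtrl library was assumed to vary like the shMib2 libraries. DESeq2 (1.42.0) served as an alternative, and doublets were predicted with Scrublet through scanpy (1.11.5) but kept.

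Genes were named if called, in the same direction in every library and at least 20 CPM on average in the higher class, by size of the log2 difference (up to 12 in each direction against other CD8-negative T cells, 6 against CD8 T cells), and as the 5 of lowest p in each list. Ccl5, Nkg7, Gzmb, Nt5e, Itgb8, Fgl2, Ccr8, Tgfb1, Cd74 and other genes outside this rule were chosen after their values were seen. The members, the 13 lists and the 10 marker lists were chosen with earlier results of these data known. The fits were tested on simulated data with 100 genes changed at a log2 difference of 1 and 100 at 2. Against other CD8-negative T cells, 28 and 93 of them were recovered, and against CD8 T cells 41 and 98. Between the labels almost none was recovered at either size, so a gene not called there carries little weight. Promoters came from RefSeq (GRCm38.p6). Results for some genes are not reported here.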

Additional observations from a re-analysis of the deposited data

Results flagged for a closer look

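The difference between the labels in Tregs was set against the same difference in other CD8-negative T cells of the same libraries by an interaction term in edgeR's quasi-likelihood test. Of 6143 genes, 79 passed (1.29%), all with the more positive difference in Tregs, and 518 had an unadjusted p under 0.05. The median over all genes was 0.62 on the log2 scale, and the 6 Tregs labelled shCtrl enter each value. Of the 79, 47 encode ribosomal proteins and 8 had no UMI in those 6 Tregs. The 101 ribosomal protein genes made up 27.6%, 24.5% and 26.3% of Treg UMIs and 36.4%, 30.5% and 31.4% of those of other CD8-negative T cells (shCtrl first, then the shMib2 replicates). The cause was not tested.

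Among the genes named in the report, Tmsb4x differed by 1.35 (adjusted p = 3.01e-05), with 9311, 16199 and 16657 CPM in Tregs against 14131, 16598 and 15281 CPM in other CD8-negative T cells, all by edgeR's quasi-likelihood test. Actb differed by 0.84 (adjusted p = 0.00447 by the same edgeR test). Ifi27l2a, an interferon-response gene, differed by 1.57 (adjusted p = 0.0495 by the same edgeR test). For Ms4a4b the fitted difference was 9.93 (adjusted p = 0.0412 by the same edgeR test), but the Tregs labelled shCtrl had no UMI, so the value depends on the prior count and is no bound.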

How the results depend on the processing

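The labels were compared without pairing, since 1 library labelled shCtrl stood against 2 labelled shMib2, and no replicate block was fitted between them. The ratio of the Treg share of T cells was 1.17 under a stricter cell filter, 1.76 with a Foxp3 UMI required, 1.04 with at least 4 and 2.15 with at least 2 of the 6 genes, 1.14 without the limit on Dct and Pmel, and 0.935 at 1000 UMIs a cell, and 1.25 to 1.37 with either shMib2 replicate left out. That of kept barcodes was 22.7 with at least 2 of the 6 genes. Against other CD8-negative T cells, genes called higher and lower were 106 and 136 by DESeq2, 97 and 160 with Foxp3 required, 51 and 45 against cells with a Cd4 UMI, and 93 to 351 and 92 to 378 with 1 library left out. Against CD8 T cells they were 58 and 29 by DESeq2, 59 and 54 at 1000 UMIs and 47 and 45 with Foxp3 required, 45 were lower without the library block, and 56 to 130 and 36 to 129 were called with 1 library left out. Between the labels 3 genes passed with RLE size factors, 4 at 1000 UMIs, and 0 without a filter, at 50 UMIs or more, without doublets or without the deepest Treg labelled shCtrl. Of values for single genes, 1501 stayed on their side of the threshold, 27 passed it, 107 fell short of it and 10 turned direction. Against other CD8-negative T cells, Gzmb, not called at 0.04, was at -0.27 with Foxp3 required, at -0.0074 under the stricter cell filter and from -0.25 to 0.83 with 1 library left out, and against cells with a Cd4 UMI Ccl5 was at 0.80, Nkg7 at 1.00 and Icos at -0.83. Against CD8 T cells, neither Lag3 (-0.44 to 0.0112 with 1 library left out) nor Il7r (0.0237 to 0.10 where it could be tested) was called. The cause was not tested.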
